A study of Mus musculus with 18 samples.

Results

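The C/EBP transcription factors followed here were the products of Cebpa, Cebpb, Cebpd and Cebpg, 4 of the 18193 genes with a probe set of a single gene symbol. They were chosen by name, with all 8 of their probe sets among the 45037 that measured transcripts: 1 for Cebpa, 2 for Cebpb, 2 for Cebpd and 3 for Cebpg. Cebpe and Cebpz were looked for but had no probe set assigned to them alone.

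C/EBP proteins are basic leucine zipper factors that bind DNA as homodimers or heterodimers with each other and with related zipper proteins. In liver, C/EBPα supports the metabolic programme of the differentiated hepatocyte and restrains its division, while C/EBPβ and C/EBPδ take part in the acute-phase response that IL-6 starts through its receptor gp130 and STAT3. C/EBPγ has no strong activation domain of its own and acts mainly as a dimer partner.

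RNA came from primary hepatocytes, the parenchymal cells of the liver, of male C57BL/6N mice aged 8 to 12 weeks, and was hybridised to 18 one-colour Affymetrix arrays. The series followed transcription over time when IL-6 stimulation comes before HGF, a growth factor for hepatocytes, with their proliferation in view. Each experiment used hepatocytes of 1 mouse or, where needed, a mix from at most 3, plated below confluence on collagen I, kept without serum in dexamethasone, and starved without dexamethasone for 4 h before stimulation. The 4 IL-6 arrays, at 1, 2, 3 and 4 h, came from cells given 40 ng/ml recombinant human IL-6 at 0 h. The 8 IL-6 plus HGF arrays, at 5, 6, 7, 8, 9, 10, 12 and 24 h, came from cells that also had 40 ng/ml recombinant mouse HGF from 4 h on. The 5 unstimulated controls were taken at 0, 4, 8, 12 and 24 h, and 1 more at -5 h, which by the hours of the protocol was before starvation and so with dexamethasone still present.

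Each stimulus and hour had 1 array, so hours of a stimulus stood in for replicates and every SD given here includes change over time. No source used here says that the dishes came from separate animals, and the p-values reflect only how these dishes varied. IL-6 alone after 4 h and HGF alone were not analysed here, so the addition of HGF and a longer time in IL-6 cannot be told apart. In bulk RNA, fewer cells of a type and less RNA per cell cannot be told apart either. Signals are given on a log2 scale, which was read from the values (2.095 to 15.049). A level of one probe set was not set against that of another. The number of arrays limits the precision.

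All arrays had the hepatocyte profile that the label states: 14 of 16 listed hepatocyte markers were measured, and their mean log2 signal was 12.03 to 12.25 under IL-6, 10.20 to 11.86 under IL-6 plus HGF, 10.83 to 12.20 in control at 0 to 24 h and 12.36 at -5 h. The 9 measured neutrophil markers averaged 4.83 to 5.14, under the array medians of 5.47 to 5.57. The 21 Kupffer cell and macrophage markers averaged 6.87 to 6.97 under IL-6, 6.88 to 7.12 under IL-6 plus HGF and 6.97 to 7.35 in control. The arrays at 24 h and the IL-6 plus HGF array at 10 h stood slightly apart, with mean correlations to the other arrays of 0.985 to 0.988, against 0.991 to 0.994 for the rest. Malat1, a long RNA retained in the nucleus, spanned 11.24 to 11.65 under IL-6, 9.16 to 12.68 under IL-6 plus HGF and 9.35 to 11.52 in control.

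The sequences upstream of Cebpa and Cebpb are shown because the later courses of these genes departed from that of Cebpd. The reference used held no upstream window for Cebpd, so Cebpd was not searched and no contrast with it can be drawn. Each is the 250 bases before the annotated start, from RefSeq on GRCm38.p6, read 5′ to 3′ on the gene's strand. They lie at chr7:35119043-35119292 (+) for Cebpa and chr2:167688665-167688914 (+) for Cebpb.
Cebpa: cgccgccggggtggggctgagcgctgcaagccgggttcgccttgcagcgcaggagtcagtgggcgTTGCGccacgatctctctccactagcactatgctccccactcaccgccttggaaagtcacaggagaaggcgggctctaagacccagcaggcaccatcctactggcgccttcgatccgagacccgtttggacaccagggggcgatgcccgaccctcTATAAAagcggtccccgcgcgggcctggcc
Cebpb: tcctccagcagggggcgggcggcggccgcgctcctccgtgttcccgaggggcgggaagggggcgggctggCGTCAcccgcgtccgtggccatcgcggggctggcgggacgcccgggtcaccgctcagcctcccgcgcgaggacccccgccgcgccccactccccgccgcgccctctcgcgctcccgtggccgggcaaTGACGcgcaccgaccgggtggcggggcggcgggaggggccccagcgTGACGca
Capitals mark matches to any of 6 letter patterns searched on both strands, chosen with the sequences in view. In the Cebpa window TTGCG, the core of a C/EBP site, began 185 bases before the start, and TATAAA began 30 bases before it. In the Cebpb window TGACG, the core of the cyclic AMP response element, began 180, 53 and 7 bases before the start, the first of them on the reverse strand. Among 32851 windows of the same length, TTGCG was found in 14.5%, TATAAA in 12.4% and TGACG in 17.8%. The fuller patterns, TTCNNNGAA for STAT, TTGCGNAA for C/EBP and TGACGTCA for the response element, were in 7.02%, 0.67% and 1.55% of all windows and in neither of these. TTGCG lies inside TTGCGNAA and TGACG inside TGACGTCA, so the patterns overlap. GC made up 66.4% of the Cebpa window and 81.6% of the Cebpb window. The Cebpg window held none of the 6 patterns and was 70.8% GC. Cebpg and Cebpa are neighbours on chromosome 7, on opposite strands, with starts 62.7 kb apart and no coding gene between them. A match describes letters only and shows no binding.

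Cebpd, the acute-phase member, was higher in every stimulated array than in any control. It had log2 signals of 10.98, 11.52, 11.34 and 11.08 at 1, 2, 3 and 4 h of IL-6. Under IL-6 plus HGF it had 10.05 at the lowest (9 h), a median of 10.46 and 10.94 at the highest (6 h). The controls had 8.69, 8.26, 8.26, 8.40 and 8.57 at 0, 4, 8, 12 and 24 h, and the control at -5 h had 8.94. The stimulated and control arrays did not overlap at any hour.

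Against control at 0 and 4 h, IL-6 raised Cebpd 6.76-fold, a log2 difference of 2.76 ± 0.21 (SE; adjusted p = 2.01e-06, limma with Benjamini-Hochberg adjustment over all genes, as for every p below). It ranked 2 of 18193 genes by p. Of the C/EBP genes 1 of 4 passed the threshold of 0.05 in this comparison, where 0.022% of all genes did. Across the 8, 12 and 24 h pairs, Cebpd was 4.07-fold higher under IL-6 plus HGF than in control (log2 difference 2.03 ± 0.10, adjusted p = 0.00102). Without the 24 h pair the difference was 2.12.

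At the same hour, Cebpd exceeded control by 2.82 at 4 h of IL-6 and by 2.27, 1.97 and 1.83 at 8, 12 and 24 h of IL-6 plus HGF. The excess was smaller at each later hour. Over all arrays of the 4 groups, the log2 difference from control changed by -0.68 ± 0.26 between IL-6 and IL-6 plus HGF, which did not pass (unadjusted p = 0.0185, adjusted p = 0.493, where 0.022% of genes passed). The course was not smooth. From 4 to 5 h Cebpd changed by -0.80, with 25 of 18193 genes lower still over that hour. From 5 to 6 h it changed by 0.65, with 74 genes higher still, so the 5 h array lay below both of its neighbours. Each of these steps is 1 array against another, with no replicate.

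The other Cebpd probe set, 1456605_at, read close to the array medians. It had 5.87 to 6.51 under IL-6, 5.46 to 6.28 under IL-6 plus HGF and 5.63 to 5.80 in control at 0 to 24 h. Its 5 h dip to 5.46 lay below all controls, so its groups overlapped. Its differences were 0.40 ± 0.19 for IL-6 (adjusted p = 1) and 0.37 ± 0.08 for IL-6 plus HGF at matched hours (adjusted p = 0.0505). With both probe sets averaged, the IL-6 difference of the gene was 1.58 and the matched difference 1.20, and both still passed (adjusted p = 0.000235 and 0.00204). Macrophages can also express Cebpd. The 21 Kupffer cell and macrophage markers had a median log2 difference of -0.44 for IL-6 minus control. Of these, 2 of 21 were above 0 and none passed the threshold, where 0.022% of all genes did. Their mean was 7.35 and 7.26 in control at 0 and 4 h and 6.87 to 6.97 under IL-6, so it went along with the stimulus. With it as a covariate the Cebpd difference was 2.52 ± 0.34 (adjusted p = 0.00894), against an SE of 0.21 without it. Which cells the Cebpd signal came from was not tested.

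**Figure D1:**
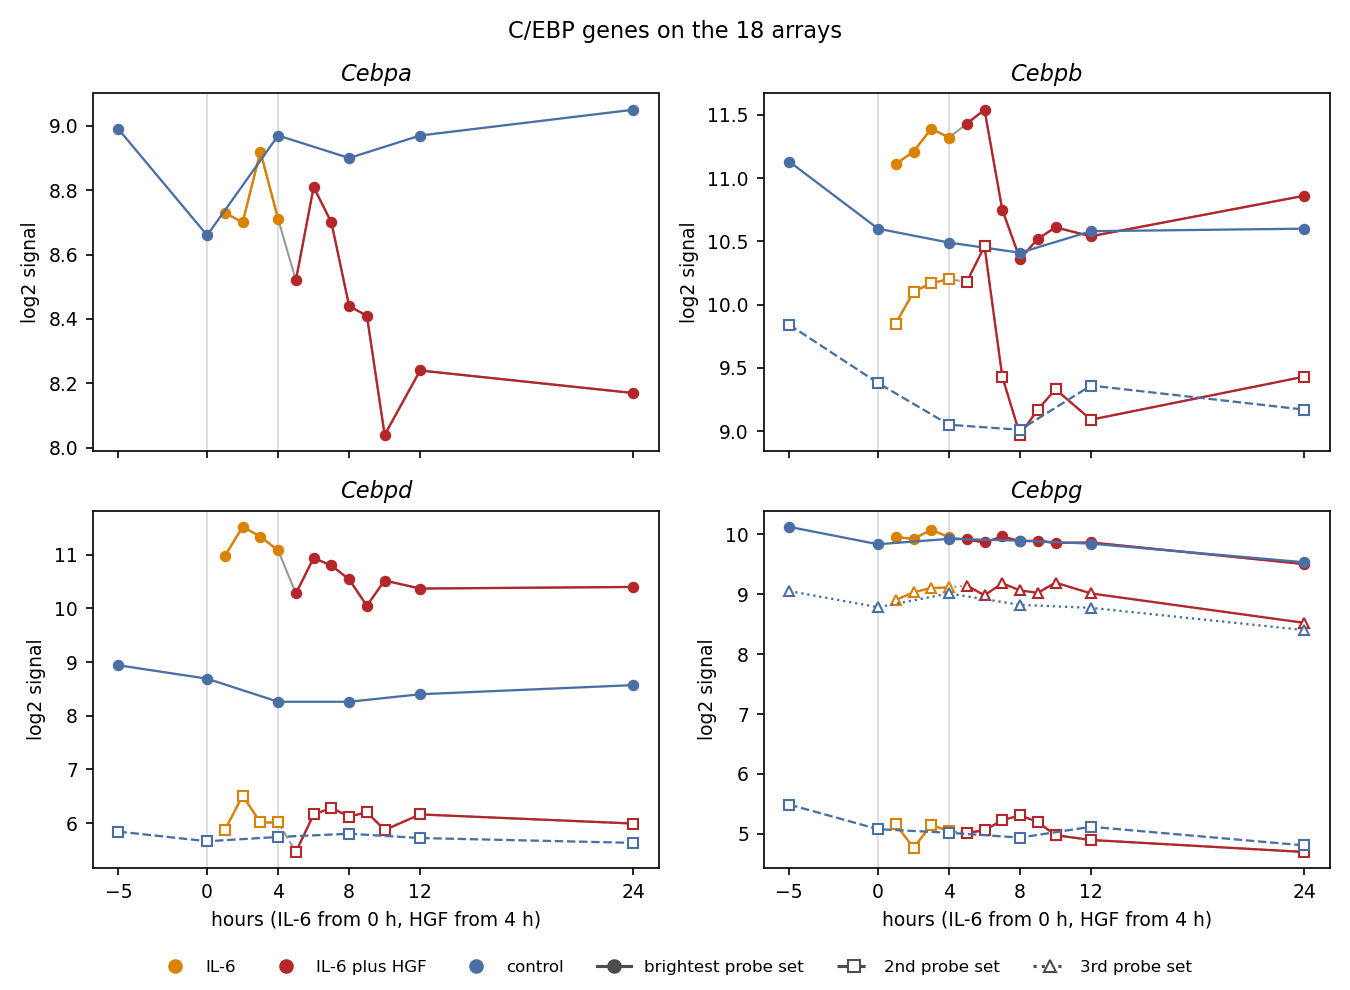
Log2 signal (vertical axes) of the C/EBP genes against hours (horizontal axes, IL-6 from 0 h, HGF from 4 h), with 1 point per array and probe set: orange for IL-6, red for IL-6 plus HGF, blue for control. The brightest Cebpd probe set stays above all controls, and the dim one overlaps them. The brightest Cebpb probe set is lower at 8 h (10.36) than at 6 h (11.54), Cebpa reaches 8.04 at 10 h, and Cebpg stays near its controls.

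Cebpb, which shares the acute-phase role and is made as activating and inhibiting protein forms from 1 mRNA, was high for 6 h and then near the control level. Its log2 signals under IL-6 were 11.11, 11.21, 11.39 and 11.32 at 1 to 4 h. With HGF they were 11.43, 11.54, 10.75 and 10.36 at 5, 6, 7 and 8 h, and from 9 to 24 h they lay between 10.52 and 10.86. The controls had 10.60, 10.49, 10.41, 10.58 and 10.60 at 0, 4, 8, 12 and 24 h. All arrays from 1 to 6 h were above every control of 0 to 24 h. Of the later ones, those at 8, 9 and 12 h (10.36, 10.52 and 10.54) were below the highest control. Those at 7, 10 and 24 h (10.75, 10.61 and 10.86) were above it, at 10 h barely so.

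The lower level was reached in 2 steps. Cebpb changed by -0.79 from 6 to 7 h (1.73-fold lower), with 3 of 18193 genes lower still over that hour, and by another -0.39 from 7 to 8 h, with 193 genes lower still. The probe set 1427844_a_at changed by -1.04 and -0.46 over the same hours. Grouped after the values were seen, and so without a test, the stimulated arrays averaged 10.61 ± 0.18 at 7 to 24 h, against 11.33 ± 0.15 at 1 to 6 h (SD, n = 6 each). Malat1 moved at the first step as well, to 11.99 at 7 h, against 9.16 at 6 h, but hardly at the second, with 11.86 at 8 h. Among the controls, Malat1 had 11.52 at 0 h and 9.62 at 4 h while Cebpb had 10.60 and 10.49. What part the RNA make-up of the 6 and 7 h arrays had in the first step was not tested.

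IL-6 over control at 0 and 4 h gave Cebpb a log2 difference of 0.72 ± 0.26, or 1.64-fold, with a 95% interval of 0.17 to 1.26. This did not pass (unadjusted p = 0.0126, adjusted p = 1), and the shared spread of that fit includes the change of Cebpb within the IL-6 plus HGF arrays. Fitted on the 6 arrays at 0 to 4 h alone, the same difference had an SE of 0.10 and an adjusted p of 0.133. At matched hours from 8 h on, Cebpb differed from control by 0.06 ± 0.09 (95% interval -0.16 to 0.27, adjusted p = 0.740). The same-hour differences were 0.83 at 4 h of IL-6 and -0.05, -0.04 and 0.26 at 8, 12 and 24 h of IL-6 plus HGF. Between the stimuli the effect changed by -0.42 ± 0.32, which did not pass (adjusted p = 0.838). With Malat1 as a covariate over all 17 arrays from 0 h on, the difference for IL-6 plus HGF was 0.64 (adjusted p = 0.165), against 0.30 without that covariate.

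The probe set 1427844_a_at followed the same course, with a correlation of 0.99 to the first over the 18 arrays. It ran from 9.85 to 10.20 under IL-6, from 8.97 to 10.46 under IL-6 plus HGF and from 9.01 to 9.38 in control at 0 to 24 h.

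At -5 h Cebpb stood at 11.13, above all later controls and within the range of the IL-6 arrays. The control at -5 h exceeded the later controls by 0.59 ± 0.12 (1.51-fold). Cebpb ranked 48 of 18193 genes by p there (unadjusted p = 0.0021), but it did not pass (adjusted p = 0.761). In that comparison 0% of genes passed with limma, and 1019 had an unadjusted p under 0.05. Cebpd was 0.50 ± 0.19 higher at -5 h than later and Cebpg 0.32 ± 0.16, also without passing (adjusted p = 0.838 for both). Cebpa differed by 0.08 ± 0.16 (adjusted p = 0.930).

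**Figure D2:**
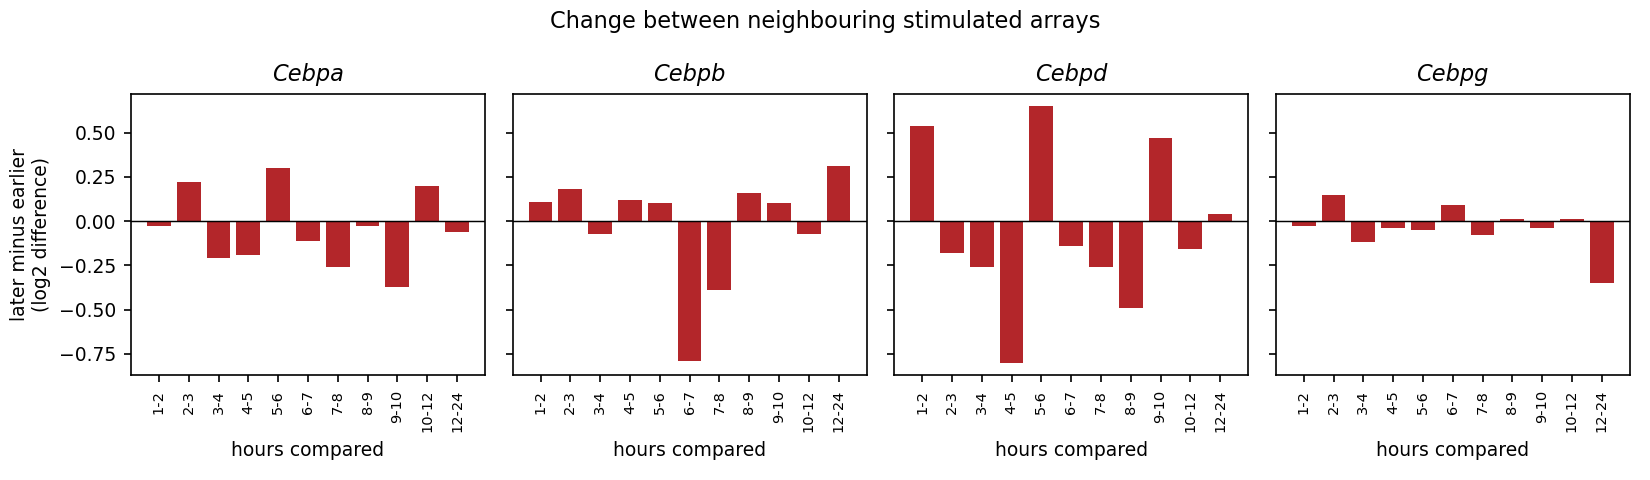
Log2 difference of the later minus the earlier array (vertical axis) for each pair of neighbouring stimulated arrays (horizontal axis, hours), brightest probe set of each gene, 1 array per hour. The longest bars are those of Cebpd from 4 to 5 h (-0.80) and of Cebpb from 6 to 7 h (-0.79).

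Cebpa, the metabolic and growth-restraining member, was lower than control in the later arrays. Under IL-6 it had 8.73, 8.70, 8.92 and 8.71 at 1 to 4 h. Under IL-6 plus HGF it had 8.04 at the lowest (10 h), a median of 8.43 and 8.81 at the highest (6 h). The controls had 8.66, 8.97, 8.90, 8.97 and 9.05 at 0, 4, 8, 12 and 24 h. All arrays from 8 h on with IL-6 plus HGF, between 8.04 and 8.44, were below every control, while those of IL-6 overlapped the controls.

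During IL-6 alone Cebpa differed from control by -0.05 ± 0.17 (95% interval -0.41 to 0.30, adjusted p = 1). At 8, 12 and 24 h it was 1.61-fold lower under IL-6 plus HGF than in control (log2 difference -0.69 ± 0.10, adjusted p = 0.0113), and it ranked 401 by p. In this comparison 9% of all genes passed, 2.53% higher and 6.46% lower, and among the C/EBP genes Cebpd was higher and Cebpa lower. The same-hour differences were -0.27 at 4 h of IL-6 and -0.46, -0.74 and -0.87 at 8, 12 and 24 h of IL-6 plus HGF, larger at each later hour. Without the 24 h pair the difference was -0.60 (adjusted p = 0.0390).

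Malat1 was higher under IL-6 plus HGF at those hours too, with 11.86, 10.69 and 10.90 against 9.62, 9.35 and 9.81 in control at 8, 12 and 24 h. With Malat1 as a covariate over 17 arrays, the Cebpa difference was -0.35 and no longer passed (adjusted p = 0.298), against -0.56 without it (adjusted p = 0.0145). Some arrays paired high Malat1 with low Cebpa and others did not. At 6 h Malat1 was the lowest of all arrays (9.16) and Cebpa the highest under IL-6 plus HGF (8.81). At 0 h Malat1 was the highest of the controls (11.52) and Cebpa their lowest (8.66). Malat1 was 12.68 at 10 h, where Cebpa was 8.04, and 10.69 and 10.90 at 12 and 24 h, where Cebpa was 8.24 and 8.17. IL-6 at 1 to 4 h had Malat1 of 11.24 to 11.65 with Cebpa of 8.70 to 8.92. Beyond this covariate, the part of RNA make-up in the Cebpa difference was not tested. Of 14 hepatocyte markers, 1 was higher and 7 were lower past the threshold at matched hours, with a median of -0.50. With their mean as a covariate over 17 arrays, the Cebpa difference was -0.54 and passed (adjusted p = 0.00444), against -0.56 without it.

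Over 5 to 24 h of IL-6 plus HGF, Cebpa changed by -0.26 ± 0.09 per doubling of the hour, which did not pass (adjusted p = 0.114, where 11.1% of genes passed and 4.84% with a decline). Without the 10 h array the slope was -0.25 and passed (adjusted p = 0.0467). Without the 24 h array it was -0.45 (adjusted p = 0.218), and leaving out any single array other than that at 10 h gave no call. In control its slope was 0.08 ± 0.03 per doubling of the hour plus 1, without passing (adjusted p = 0.178, where 3.61% of genes passed), and without the 0 h control it was 0.0382 (adjusted p = 0.803). The difference of slopes was fitted per doubling of the hour in both groups, with controls from 4 h on, so the control slope above does not enter it. It was -0.30 ± 0.12 (unadjusted p = 0.0310, adjusted p = 0.701, where 0.0989% of genes passed), and without the 24 h array of IL-6 plus HGF it was -0.48 (adjusted p = 0.346). The change of effect between the stimuli was -0.50 ± 0.22 and did not pass either (unadjusted p = 0.0322, adjusted p = 0.587).

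**Figure D3:**
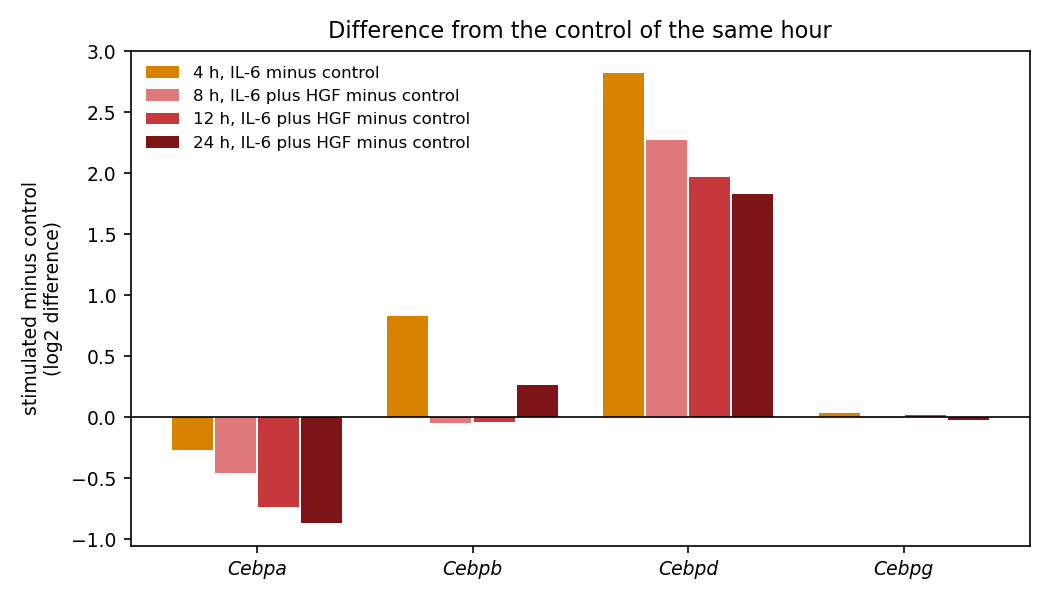
Stimulated minus control log2 difference (vertical axis) of the brightest probe set of each C/EBP gene at each hour with both arrays: 4 h for IL-6 (orange), then 8, 12 and 24 h for IL-6 plus HGF (light to dark red), 1 array on each side and no error bar. Cebpd differences shrink over the hours (2.82 to 1.83), Cebpa differences grow downwards (-0.27 to -0.87), and the brightest Cebpg probe set stays at 0.03 or less in size.

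Cebpg, the dimer partner, was close to control throughout. It had 9.95, 9.92, 10.07 and 9.95 at 1 to 4 h of IL-6. Under IL-6 plus HGF it had 9.50 at the lowest (24 h), a median of 9.87 and 9.96 at the highest (7 h). The controls had 9.83, 9.92, 9.89, 9.84 and 9.53 at 0, 4, 8, 12 and 24 h. Both 24 h arrays were the lowest of their group, and at each shared hour the stimulated and control arrays were within 0.03 of each other.

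Its log2 difference was 0.10 ± 0.12 for IL-6 (95% interval -0.14 to 0.34, adjusted p = 1) and -0.01 ± 0.07 for IL-6 plus HGF at matched hours (-0.18 to 0.17, adjusted p = 0.974). These intervals leave out changes as large as those of Cebpd. The slope over 5 to 24 h was -0.17 ± 0.05 per doubling (adjusted p = 0.0723). It was -0.04 without the 24 h array (adjusted p = 0.863) and passed without the 10 h array (adjusted p = 0.0467). The probe set 1451639_at was 0.20 ± 0.08 higher under IL-6 plus HGF at matched hours, without passing (adjusted p = 0.225), and its 24 h arrays were likewise the lowest, at 8.52 and 8.40 in control. The probe set 1425261_at read 4.70 to 5.49, on each array below the median of that array. Its correlation and that of 1451639_at with the main Cebpg probe set were 0.70 and 0.81.

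The 4 courses differed from each other. Over the 18 arrays Cebpb and Cebpd had a Pearson r of 0.58 and Cebpa and Cebpd one of -0.43, while Cebpa and Cebpb had 0.18. These arrays share hours and stimuli, and the values describe the courses only. Similar genes were sought among the 3013 that spanned at least 1 log2 unit, less those with symbols in the form of clone or model names. The pattern for such names also matched the E2f genes. The most similar to Cebpd were Socs3 (r = 0.958), the feedback inhibitor of JAK and STAT3 signalling, Gcnt2 (0.925), Arrdc4 (0.865), the interleukin-4 receptor chain Il4ra (0.859) and the ephrin Efna1 (0.854). Tnrc6b (-0.815) and Fam90a1a (-0.78) were the least similar to it. Cebpb was closest to Trib1 (0.789), a pseudokinase that targets C/EBPα for degradation, then Nfil3 (0.754), Pfn1 (0.705), Bcl3 (0.703) and Irf2bp2 (0.694), and farthest from Zfp974 (-0.691) and Zfp617 (-0.68). Cebpa was closest to Dpyd (0.964), which degrades pyrimidines, Creg1 (0.955), the aldo-keto reductase Akr1c20 (0.945), the glucuronosyltransferase Ugt2b34 (0.935) and Abca6 (0.935), and farthest from Las1l (-0.909) and Igsf8 (-0.905). Cebpg was closest to the zipper factor Atf5 (0.916), Wfdc21 (0.912), Cyp2a12 (0.903), the glucokinase regulator Gckr (0.902) and Lcat (0.90), and farthest from Ppic (-0.95) and Shroom4 (-0.948). Cebpg itself spanned only 0.62 log2 units over the 18 arrays, less than was asked of the other genes. Its 24 h arrays were its lowest (9.50 and 9.53), and their part in these correlations was not tested.

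Socs3, which also checks the response to IL-6, had 11.09, 10.80, 10.89 and 10.69 at 1 to 4 h of IL-6 and 7.12 to 7.60 in control at 0 to 24 h. It rose 11.4-fold with IL-6 (log2 difference 3.51 ± 0.32, adjusted p = 2.44e-05). Under IL-6 plus HGF it had 9.45 to 11.04, and it was 5.77-fold higher than control at matched hours (2.53 ± 0.12, adjusted p = 0.00102). It was highest at 1 h, where Cebpd was highest at 2 h. Stat3, the factor that IL-6 activates, had 10.47 to 10.89 under IL-6, 10.40 to 10.95 under IL-6 plus HGF and 9.99 to 10.23 in control. Its difference was 0.52 ± 0.15 for IL-6 (adjusted p = 0.989) and 0.50 ± 0.08 at matched hours, which passed (adjusted p = 0.0170).

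Of 25 measured upstream regulators of C/EBP genes or proteins, Socs3 alone passed for IL-6, where 0.022% of all genes did. The median difference was -0.01, against -0.01 for all genes. At matched hours 2 were higher than in control, Socs3 and Stat3, and 2 were lower. The median was -0.06 against 0.01 for all genes, of which 2.53% were higher and 6.46% lower past the threshold. Smarca2, an ATPase of the SWI/SNF remodelling complex that C/EBP proteins recruit, was lower by 0.89 ± 0.12 (adjusted p = 0.00925). Hnf4a, a nuclear receptor of hepatocyte identity that is also in the hepatocyte marker list, was lower by 0.67 ± 0.10 (adjusted p = 0.0130).

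Of 17 measured zipper partners, none passed for IL-6, where 0.022% of all genes did. The median difference was 0.10, and 656 of all genes had an unadjusted p under 0.05. Junb had 0.96 ± 0.22 there (adjusted p = 0.453) and Nfil3 0.34 ± 0.25 (adjusted p = 1). At matched hours 3 of the 17 passed, where 9% of all genes did. The AP-1 subunits Junb and Fosl2 were higher than in control by 1.23 ± 0.09 (adjusted p = 0.00194) and 0.65 ± 0.09 (adjusted p = 0.0115). Jun was lower by 0.31 ± 0.07 (adjusted p = 0.0478). The other 14 did not pass, among them Ddit3, which blocks C/EBP dimers from their usual sites, at 0.06 ± 0.08 (adjusted p = 0.664) and Atf4 at 0.21 ± 0.08 (adjusted p = 0.182). The median of the list was 0.01.

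Of 26 measured acute-phase genes with known C/EBPβ or C/EBPδ control, none passed for IL-6, where 0.022% of all genes did. Their median was 0.04. In control at 0 to 24 h Saa1 had 13.27 to 14.10, Hp 14.33 to 14.59 and A2m 4.53 to 5.23, on a scale that ended at 15.049. Whether a high signal without IL-6 limited a rise was not tested. The metalloreductase Steap4 had the smallest p, at 1.53 ± 0.26 (adjusted p = 0.0567), and the fibrinogen chain Fgb had 0.41 ± 0.11 (adjusted p = 0.914). At matched hours 4 were higher than in control and 1 lower, with a median of -0.06, while 2.53% of all genes were higher and 6.46% lower. The fibrinogen chain Fga was higher by 0.81 ± 0.09 (adjusted p = 0.00587) and Fgb by 0.58 ± 0.07 (adjusted p = 0.00813). The interleukin-1 receptor Il1r1 was higher by 0.74 ± 0.09 (adjusted p = 0.00634) and the endotoxin coreceptor Cd14 by 0.40 ± 0.09 (adjusted p = 0.0433). Saa4, a constitutive serum amyloid, was lower than in control by 0.99 ± 0.19 (adjusted p = 0.0287). It had 7.59 to 7.98 under IL-6, 7.29 to 8.03 under IL-6 plus HGF and 7.16 to 8.94 in control at 0 to 24 h.

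Of 21 measured metabolic genes with known C/EBPα control, none passed for IL-6 (median -0.01), where 0.022% of all genes did. Pck1 of gluconeogenesis had -0.16 ± 0.54 there and the iron hormone gene Hamp 1.19 ± 0.57 (adjusted p = 1 for both). At matched hours 11 were lower than in control and none higher, where 6.46% of all genes were lower. The median was -0.60, against 0.01 for all genes. The hepatocyte markers went the same way, with 7 of 14 lower and a median of -0.50, and their part in the difference of the list was not tested. The alcohol dehydrogenase Adh1 fell by 3.15 ± 0.37 (adjusted p = 0.00612) and the glycogen synthase Gys2 by 1.53 ± 0.16 (adjusted p = 0.00494). The urea cycle enzyme Cps1 was lower by 1.48 ± 0.23 (adjusted p = 0.0147) and Cyp7b1 of bile acid synthesis by 1.14 ± 0.17 (adjusted p = 0.0120). The tyrosine aminotransferase Tat was lower by 0.85 ± 0.11 (adjusted p = 0.00895) and the coactivator Ppargc1a by 0.66 ± 0.11 (adjusted p = 0.0177). Of the 21 genes, 6 are also hepatocyte markers, and the albumin gene Alb, one of them, differed by -0.04 ± 0.07 (adjusted p = 0.751). These lists were assembled with results of these data known, and their counts describe them.

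**Figure D4:**
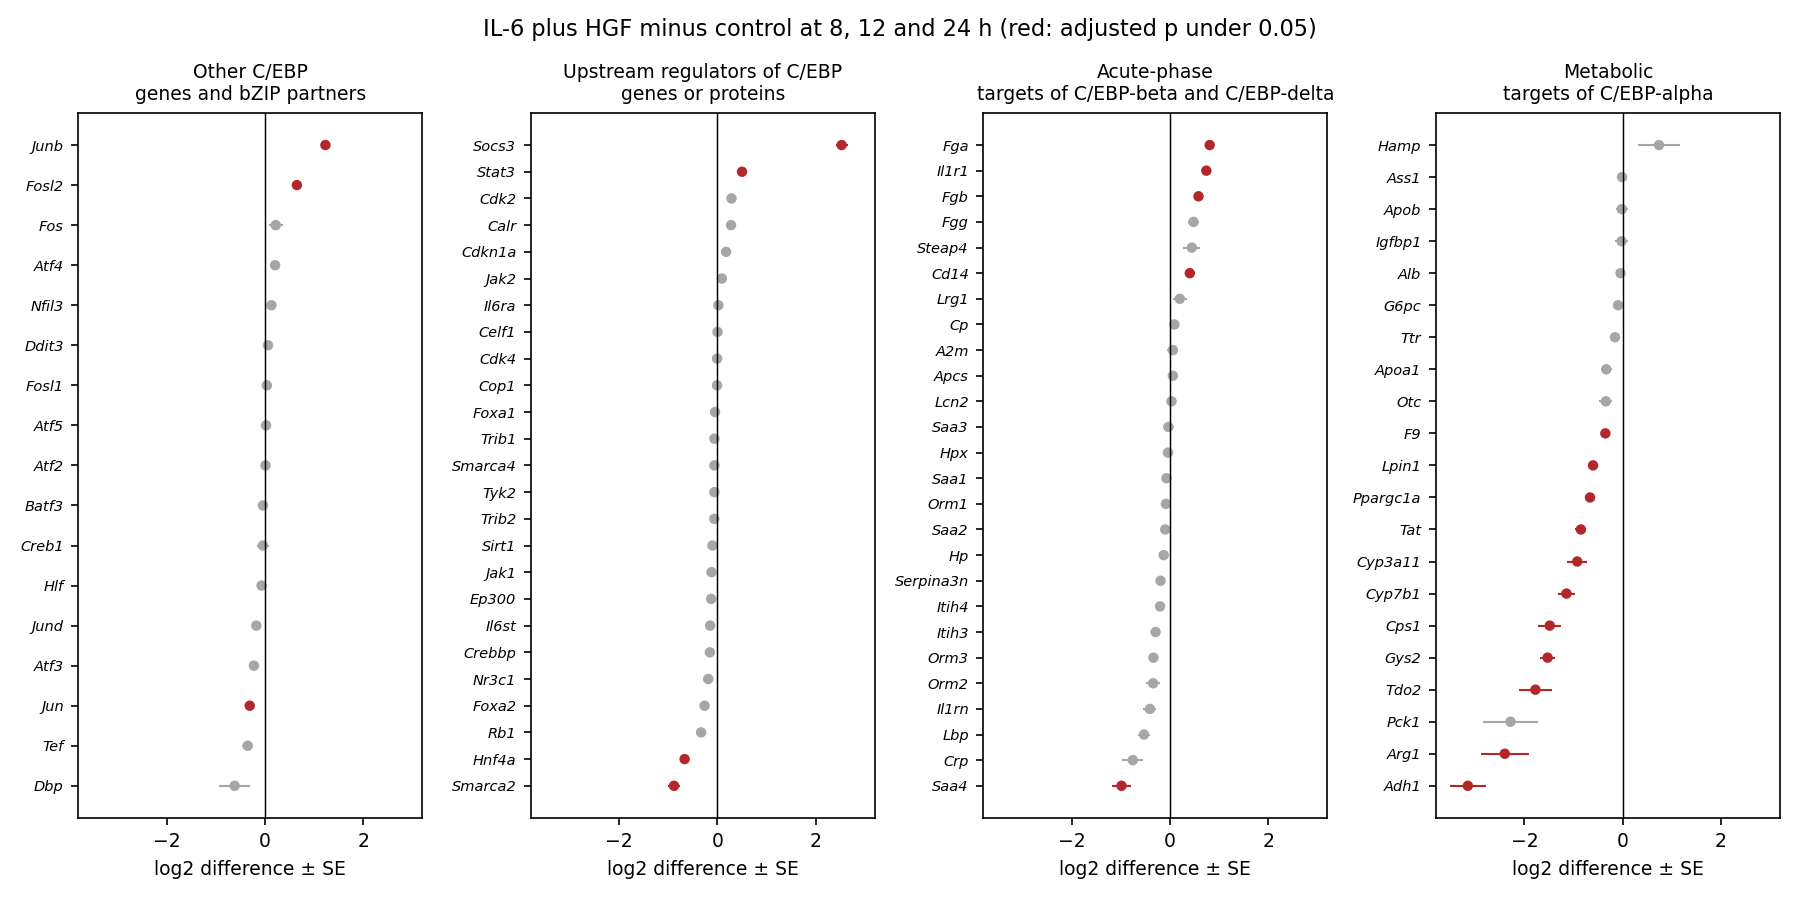
Log2 difference of IL-6 plus HGF minus control at 8, 12 and 24 h (horizontal axes, mean of 3 pairs with SE from limma) for each measured gene (rows) of the lists, red where the adjusted p was under 0.05. The metabolic list lies mostly left of 0 with 11 genes past the threshold, and the acute-phase list holds 4 above and 1 below.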

How the data were processed

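RNA was labelled with biotin by the one-cycle kit for hybridisation, per the labels' protocols. The deposited series matrix held 1 column of 45101 probe set values per array and 0 unused columns. The labels do not state its unit: values of 2.095 to 15.049 and array medians of 5.47 to 5.57 were taken as log2 signals of the authors, already normalized. Sorted values differed from their mean over arrays by at most 0.118. How the authors summarized and normalized them is not given in the sources used here, and the values were not rescaled.

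Without 64 control probe sets, 34945 probe sets had 1 gene symbol, 932 several and 9160 none. Symbols were updated through the Entrez identifier for 34741, and 204 kept that of the platform annotation. Each of 18193 genes was read from its probe set of highest mean signal (9010 had several). Groups came from the stimulus and time labels, and no array was left out.

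Fits used limma 3.58.1 (lmFit, eBayes) in R 4.3.3, with p-values adjusted over all genes (Benjamini-Hochberg) and called under 0.05. The IL-6 difference and the change of effect used 17 arrays in 4 cells (13 residual degrees of freedom). Matched hours used 6 arrays with the hour as a block (2 residual degrees of freedom), a pairing that comes from the hours in the labels. Trends used 8, 5 and 12 arrays, and -5 h was set against 5 controls. Fits were tested on simulated data with known changes. Of genes given a log2 change of 0.5, the IL-6 fit called 46.3% and the matched-hours fit 0%. The change of effect called 19.4% and the -5 h fit 4.5%. With a change of 1 the shares were 94%, 80.6%, 85.1% and 70.1% in the same order. A slope of 0.5 was called in 67.2% under IL-6 plus HGF, 95.5% in control and 44.8% for their difference. A change of about 0.5 that did not pass is therefore not shown to be absent. The alternatives were quantile normalization, centring on array medians, a dim filter (mean under 5.87, the 40th percentile), a robust intensity trend, other probe set rules, other arrays or covariates, and leaving out arrays.

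The rule named the C/EBP genes with all probe sets, the 5 most and 2 least similar genes of each by Pearson r, up to 6 members of each pathway list past the threshold in the first 2 comparisons or 2 as values, Socs3 and Stat3. A few others are named as values after they were seen. The members, lists and rule were chosen with earlier results of these data known.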

Additional observations from a re-analysis of the deposited data

Results flagged for a closer look

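Of 24 sets of values, 1 for each C/EBP probe set and stimulus, 4 held an array far from the others by Dixon's criterion at 95%, and chance gives about 1 in 20. Cebpa at 3 h of IL-6, with a log2 signal of 8.92, was far above the other IL-6 arrays (8.70 to 8.73). Cebpg was far below its group at 24 h, with 9.50 under IL-6 plus HGF and 9.53 in control for the probe set 1425262_at. The probe set 1451639_at was far below its group at 24 h of IL-6 plus HGF, with 8.52.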

How the results depend on the processing

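Cebpd passed for IL-6 and at matched hours under all alternatives run. Cebpa passed at matched hours under all but 1: with Malat1 as a covariate, added after the data were seen, it was -0.35 (adjusted p = 0.298). Cebpb passed in neither comparison under any alternative. The labels number no replicates, so the hour was the only block tried. Where a value near 0 changed sign the cause was not tested. For IL-6, 12 probe sets passed with every probe set a feature, a count not comparable with one of genes. Against 4 genes in the main fit, 22 passed with all 5 controls, 9 with hour as covariate and 9 with Malat1. Cebpa was 0.0599 with Malat1 and -0.21 to 0.10 without single arrays. At matched hours 142 passed without the hour block and 585 to 843 without 1 pair, against 1637. There Cebpg was 0.0262 after quantile normalization, 0.0684 with probe sets averaged and -0.0177 to 0.0046 without 1 pair, and Cebpb was -0.0439 to 0.11. Over 4 cells of 17 arrays 1608 passed, against 261 with Malat1 and 3502 with hepatocyte markers as covariate. In those cells Cebpg was 0.0863, and 0.087, 0.11 and 0.19 with Malat1, hepatocyte or Kupffer covariates. For the change of effect 2 passed after centring and 0 to 26 without single arrays, and Cebpg was 0.0194 (quantile), 0.10 (averaged) and -0.12 to 0.0549.

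For the IL-6 plus HGF trend 244 passed without 24 h and 244 to 3095 without single arrays, against 2020; Cebpg passed with the dim filter (-0.17, adjusted p = 0.0410) and per hour (-0.0218, adjusted p = 0.0258), and ran from -0.20 to -0.0423, and Cebpa from -0.45 to -0.21. In control 988 passed with the dim filter, 1685 per hour and 23 to 666 without single arrays, against 657; Cebpb was 0.0082 after centring, 0.0027 per hour and -0.024 to 0.0639, Cebpd 0.002 per hour and -0.10 to 0.14, Cebpg -0.17 to 0.0085 and Cebpa 0.0382 to 0.08. For the difference of trends 29 genes passed with the dim filter, 42 with robust variance, 11 averaged, 46 per hour and 1 without 24 h, against 18. Without single arrays 0 to 44 genes passed, and 7 probe sets passed with every probe set a feature. Cebpg was 0.0066 without 24 h and -0.12 to 0.11 without single arrays, and Cebpa -0.48 to -0.24.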

Other observations

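Trib1, whose product directs C/EBPα to degradation, was the gene most similar to Cebpb, so their shared course follows from that choice. It had log2 signals of 8.33, 8.53, 8.57 and 8.68 at 1 to 4 h of IL-6. Under IL-6 plus HGF it had 8.57, 8.50 and 8.29 at 5, 6 and 7 h and 7.55 at 24 h, and in control 7.66 to 8.17 at 0 to 24 h. At -5 h it had 8.15, within the range of the later controls, where Cebpb had 11.13, above them. Its slope over 5 to 24 h was -0.51 ± 0.10 per doubling of the hour (adjusted p = 0.00826, limma). In control the slope was -0.10 ± 0.03 (adjusted p = 0.0837), and the difference of slopes did not pass (-0.42 ± 0.13, adjusted p = 0.478). Atf5, a zipper factor of the stress response, fell by 0.57 ± 0.09 per doubling under IL-6 plus HGF (adjusted p = 0.00247) and had -0.26 ± 0.08 in control (adjusted p = 0.111).

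Over 5 to 24 h of IL-6 plus HGF, 13 of 26 acute-phase genes and 11 of 21 metabolic genes declined past the threshold, against 4.84% of all genes. So did 10 of 14 hepatocyte markers, with a median slope of -0.66, and their part in the lists' decline was not tested. Without the 24 h array 244 genes passed in either direction, against 2020 with it. In control the median slope per doubling of the hour plus 1 was -0.12 for the acute-phase list and -0.06 for the metabolic list. It was -0.12 for the hepatocyte markers, whose mean signal was 12.2 at 0 h and 10.83 at 24 h. The difference of slopes, fitted per doubling of the hour in both groups without the 0 h control, passed for no gene of these lists. Its medians were -0.07, -0.16 and -0.27 in the same order. A decline beyond that of control was therefore not called for any of them. In control, Tat declined by 0.46 ± 0.05 per doubling of the hour plus 1 (adjusted p = 0.0164), while Steap4 rose by 0.33 ± 0.05 (adjusted p = 0.0305) and Saa4 by 0.36 ± 0.06 (adjusted p = 0.0357). Hamp stood at 9.21 in control at 24 h, above its 8.45 at 24 h of IL-6 plus HGF. Pck1 read 3.48 to 3.80 in every IL-6 plus HGF array, against 6.50 and 7.17 in control at 8 and 12 h and 3.88, 4.68 and 3.89 at 0, 4 and 24 h.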
